A study of Mus musculus with 2 samples.

Results

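The genes described here are 7 that handle arginine or make itaconate, *Nos2*, *Arg1*, *Slc7a1*, *Slc7a2*, *Ass1*, *Odc1* and *Acod1*, out of 33696 genes in the matrices. Each was found by its symbol, and all 7 had UMIs (unique molecular identifiers, each standing for 1 captured RNA molecule) in both libraries. They were chosen by values measured in these same libraries, so that the differences between antibodies are given as descriptions. The clearest of these lay in monocyte/macrophage-like cells: *Nos2* was at 1.56 counts per 1000000 UMIs (CPM) under control Ab and 311 under anti-CD9 Ab, *Arg1* at 19.5 and 799, and *Slc7a2* at 9.75 and 347. *Acod1* was highest in neutrophil-like cells, and *Odc1* in T cell-like cells.

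The 2 libraries were made from CD45+ cells sorted from the thalamus of C57B6/J mice 21 days after cortical ablation injury (CAI). Both groups received repeated injections into the thalamus through a cannula from day 7 to day 19, of either anti-CD9 Ab (clone KMC8) or normal rat IgG as control Ab, at 1.0 μg/μl. There was 1 library per antibody. By the methods, a thalamus library pooled 4 mice, without a figure given again for the antibody groups. Antibody, pool of mice and library cannot be told apart, no test was possible, and all intervals are 95% intervals that cover counting error only. The antibody was given into the tissue and not to one cell type.

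Arginine enters cells mainly through cationic amino acid transporters, of which *Slc7a1* encodes the widely used form and *Slc7a2* a form that is induced in activated macrophages. Inside the cell, inducible nitric oxide synthase (*Nos2*) turns arginine into nitric oxide and citrulline, and arginase 1 (*Arg1*) turns it into ornithine and urea. Citrulline is made into arginine again by argininosuccinate synthase (*Ass1*) with argininosuccinate lyase, and ornithine decarboxylase (*Odc1*) opens the way from ornithine to polyamines. *Acod1* encodes the mitochondrial enzyme that makes itaconate from the citric acid cycle intermediate cis-aconitate in activated myeloid cells. *Nos2* and *Arg1* compete for the same substrate and have long been used as opposite markers of macrophage activation.

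Of the 7 genes, 4 had a promoter in the RefSeq set for GRCm38.p6, with 5 start sites. *Nos2*, *Arg1* and *Slc7a2* had none. The 250 bases before the start of *Acod1* and *Ass1* are shown, since these genes had the higher level under anti-CD9 Ab in monocyte/macrophage-like cells among the 4. Both are on the plus strand, *Acod1* at chr14:103046762-103047011 and *Ass1* at chr2:31470020-31470269, and capitals mark the motifs found.
Acod1: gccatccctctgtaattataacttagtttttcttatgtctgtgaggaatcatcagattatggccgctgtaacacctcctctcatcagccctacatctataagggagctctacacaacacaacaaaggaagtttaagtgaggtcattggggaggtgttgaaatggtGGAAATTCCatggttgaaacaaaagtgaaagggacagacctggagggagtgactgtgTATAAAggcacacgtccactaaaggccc
Ass1: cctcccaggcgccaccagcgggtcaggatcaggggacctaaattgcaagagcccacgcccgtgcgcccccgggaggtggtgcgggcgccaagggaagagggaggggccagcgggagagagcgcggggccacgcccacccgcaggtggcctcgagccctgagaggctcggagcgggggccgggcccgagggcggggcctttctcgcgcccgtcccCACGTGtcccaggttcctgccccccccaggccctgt
Searches covered both strands for GGNNNTTCC (kappaB-like), TTCNNNGAA (GAS, the element bound by STAT factors), CACGTG (an E-box) and TATAAA. *Acod1* held GGAAATTCC, which is kappaB-like, from 85 to 77 bases before the start, and TATAAA from 28 to 23 bases before it. *Ass1* held an E-box, CACGTG, from 36 to 31 bases before its start. The capitals do not overlap. Neither start site of *Slc7a1* gave a kappaB-like match, although one held TTCAAAGAA and TATAAA, and the window of *Odc1* held none of the 4 motifs. Among 32851 windows of the same length, 15.7% held the kappaB-like letters, 12.4% TATAAA, 7.02% the GAS and 6.02% the E-box. These matches describe the letters only, and no binding was measured.

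The matrices held raw UMI counts of 12245 barcodes under control Ab and 15173 under anti-CD9 Ab, with 54 barcodes in both. Cells with 200 to 7500 genes and no more than 2% mitochondrial counts were kept, 7467 and 9162, with 24940542 and 22664880 UMIs. The 23 clusters were built without the 7 genes and without the rest of their pathways, and were named from markers. In the order control Ab and anti-CD9 Ab, there were 282 and 1248 monocyte/macrophage-like cells, 62 and 2709 neutrophil-like, 1953 and 841 microglia-like, 117 and 366 dendritic cell-like and 2783 and 886 T cell-like cells. B cell-like (31 and 102) and plasma cell-like (143 and 122) cells were fewer. The CD45+ sort also held 426 and 78 astrocyte-like and 297 and 94 oligodendrocyte-like cells. Clusters without a name held 1373 cells under control Ab and 2716 under anti-CD9 Ab. The largest of these under anti-CD9 Ab was cluster 6 (37 and 1250 cells, led by *Slpi*, *Hmgb2*, *Manf*, *Hsp90b1* and *Igkc*), and the next cluster 8 (5 and 793 cells, led by *Gdf15*, *Gadd45b*, *Hilpda*, *Mreg* and *Ankrd33b*).

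The monocyte/macrophage-like cells formed 1 cluster, led by *F13a1*, *Arg1*, *Gm56663*, *Saa3* and *Lyz2*. The summed level of its 12 markers was 17164 CPM under control Ab and 24313 under anti-CD9 Ab, with none at 0. Microglia markers, 10 in all and none at 0, summed to 6220 CPM in these cells under control Ab and 916 under anti-CD9 Ab, neutrophil markers (10, none at 0) to 486 and 663, T cell markers (9, none at 0) to 335 and 93.2, and plasma cell markers (7, 1 of them at 0 under anti-CD9 Ab) to 2044 and 356. Predicted doublets were 20.9% and 27.1% of the cells. The number called in each library was set beforehand, at 0.8% per 1000 barcodes. The library with more barcodes, anti-CD9 Ab, thus had a larger share called. The UMIs of predicted doublets were not summed. When these cells were clustered again, as given below, 1 sub-cluster, number 5, was mostly predicted doublets. It held 1034183 of the 2564262 UMIs of these cells under control Ab, and 523425 of 6813932 under anti-CD9 Ab. These values differed between the libraries beside every difference given for these cells, and their part in it was not tested. The ratios of the 7 genes, by cell type and over all cells, were computed again without predicted doublets. So were the shares of cells with *Nos2*, *Arg1* or both, and no other value was.

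*Nos2*, the inducible enzyme of nitric oxide synthesis, gave 9 UMIs in the whole control Ab library and 2849 in the anti-CD9 Ab library (0.361 and 126 CPM). With anti-CD9 Ab, 74.3% of its UMIs came from monocyte/macrophage-like cells and 12.2% from neutrophil-like cells. In monocyte/macrophage-like cells, 4 UMIs under control Ab (1.56 CPM, interval 0.425 to 3.99) stood against 2117 under anti-CD9 Ab (311 CPM, 298 to 324), giving a log2 ratio of 7.64 (6.28 to 9.52). Neutrophil-like cells had 0 *Nos2* UMIs among 62 control Ab cells, or 42.9 CPM at the floor of 3 counts. They had 349 UMIs under anti-CD9 Ab (105 CPM, 94.0 to 116), 2.44-fold higher than that floor. The exact interval of the log2 ratio starts at 0.98, below 2-fold. The small control Ab count of neutrophil-like cells sets both values. Neutrophil markers summed to 89688 CPM in these cells under control Ab and 40574.5 under anti-CD9 Ab (10, none at 0), monocyte/macrophage markers to 7879 and 2562 (of 12, 4 and 0 at 0) and microglia markers to 1873 and 388 (10, none at 0), and their part in the differences given for neutrophil-like cells was not tested.

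With anti-CD9 Ab, the order of *Nos2* levels was monocyte/macrophage-like (311 CPM), neutrophil-like (105), dendritic cell-like (28.1, 20.4 to 37.8) and oligodendrocyte-like cells (27.5, from 3 UMIs). The last of these did not differ from its neighbour beyond counting error. B cell-like (13.3), microglia-like (7.43), plasma cell-like (5.79) and T cell-like cells (5.19, 2.59 to 9.28) had intervals that overlapped each other, and *Nos2* was at 0 in astrocyte-like cells. T cells are not a usual source of *Nos2*, and their level is set beside the others as a background, whose source was not tested. Predicted doublets were 5.82% of T cell-like cells under control Ab and 6.55% under anti-CD9 Ab. Neutrophil markers in them summed to 60.6 and 583 CPM (of 10, 1 and 0 at 0). In dendritic cell-like cells, *Nos2* was at 75.0 CPM in cluster 18 (led by *Ccr7*, *Fscn1*, *Serpinb6b*, *Adgrg6* and *Tmtc2*) and 3.88 in cluster 15 (led by *Wdfy4*, *Zfp366*, *Flt3*, *Plbd1* and *Btla*). Among the clusters without a name, *Nos2* was at 145 CPM in cluster 8 and 87.9 in cluster 6 under anti-CD9 Ab, and at 0 in both under control Ab. That 0 allows up to 573 CPM in the 5 control Ab cells of cluster 8, above its anti-CD9 Ab level, so that no difference was detectable there, and up to 21.6 CPM in cluster 6.

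*Arg1*, the cytosolic arginase, had 82 UMIs under control Ab and 5947 under anti-CD9 Ab (3.29 and 262 CPM), and 91.5% of the latter came from monocyte/macrophage-like cells. In those cells it had 50 UMIs under control Ab (19.5 CPM, 14.5 to 25.7) and 5441 under anti-CD9 Ab (799 CPM, 777 to 820.0), giving a log2 ratio of 5.36 (4.95 to 5.79). Single cells carried up to 69 *Arg1* UMIs under anti-CD9 Ab, with 10 or more in 210 of 1248 cells, against 1 of 282 under control Ab. Unlike *Nos2*, *Arg1* was at 10.2 CPM (7.06 to 14.3) in neutrophil-like cells under anti-CD9 Ab, no higher than in T cell-like cells (14.6, 9.93 to 20.8). Of the 31 UMIs of those T cell-like cells, 12 came from 1 cell, and no neutrophil-like cell had more than 2. Microglia-like cells had 7.43 CPM and dendritic cell-like cells 8.95. The next highest group was cluster 6, at 226 CPM (204 to 251), which had no *Arg1* UMI in its 37 control Ab cells (allowing up to 21.6 CPM).

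**Figure D1:**
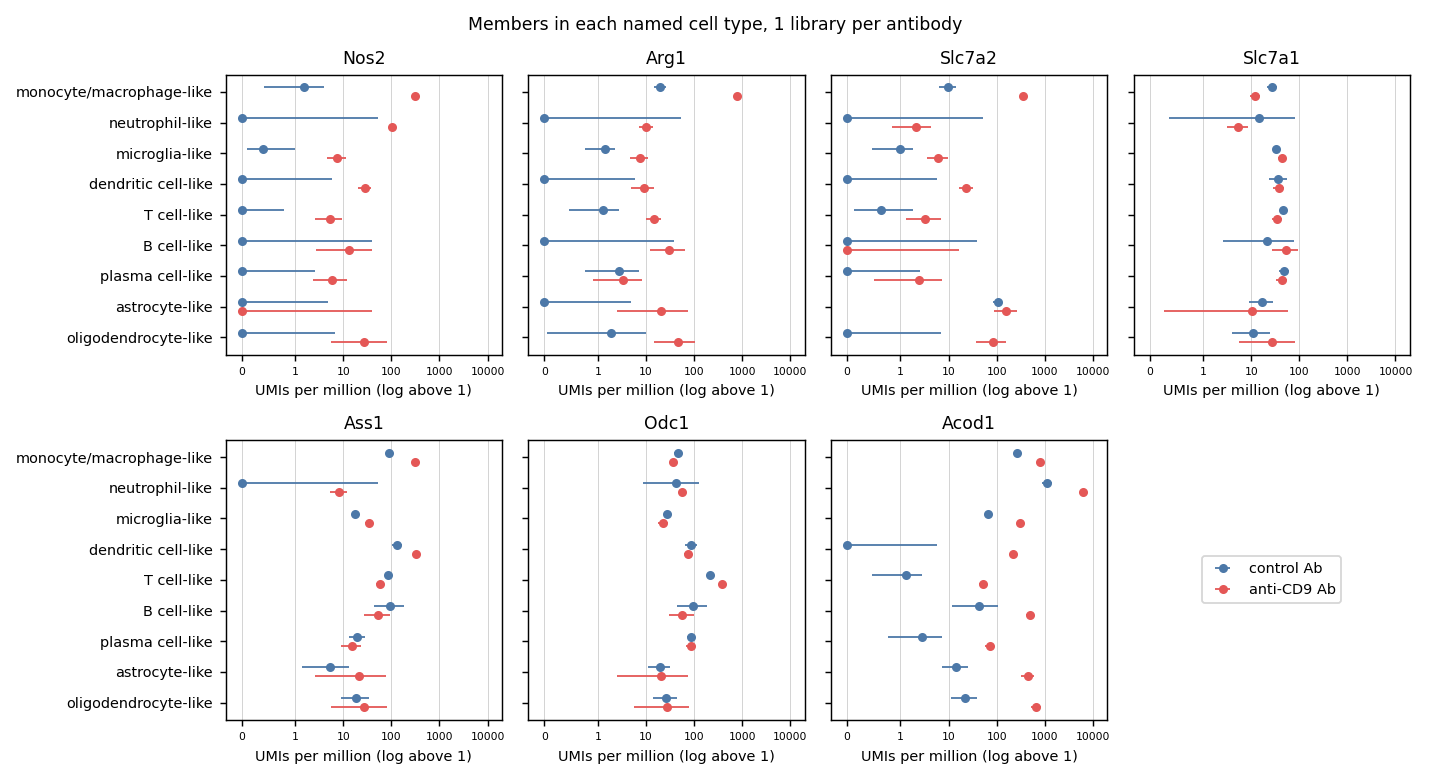
Level of each of the 7 genes in 9 named cell types, as CPM (linear from 0 to 1, log above 1), under control Ab in blue and anti-CD9 Ab in red, 1 library each. Bars are 95% Poisson intervals. *Nos2*, *Arg1* and *Slc7a2* had their highest anti-CD9 Ab level in monocyte/macrophage-like cells (311, 799 and 347), *Acod1* in neutrophil-like cells (6257) and *Odc1* in T cell-like cells (379.7).

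To ask whether *Nos2* and *Arg1* were found in the same cells, each cell was thinned to 1000 UMIs, since a deeper cell shows more genes. Thinning left out 5 shallower monocyte/macrophage-like cells under control Ab and 9 under anti-CD9 Ab. Of 1239 monocyte/macrophage-like cells under anti-CD9 Ab, 118 then had *Nos2* alone, 265 *Arg1* alone and 81 both, and 775 had neither. Cells with both were 6.54% (5.23 to 8.06%), and the product of the separate shares (16.1% for *Nos2* and 27.9% for *Arg1*) was 4.49%, or 55.6 cells. *Arg1* was found in 40.7% of the cells with *Nos2* and in 25.5% of those without. Thus the 2 genes did not exclude each other among these cells. With control Ab, *Nos2* was found in 0 of 277 thinned cells, which by the floor of 3 counts allows up to 1.08% of thinned cells with a UMI, and *Arg1* in 4 (1.44%). Unthinned, *Nos2* was found in 3 of 282 control Ab cells (1.06%). In T cell-like cells under anti-CD9 Ab, at a median of 2282.5 UMIs before thinning against 5119 in monocyte/macrophage-like cells, *Nos2* was found in 0.733% of 818 thinned cells, *Arg1* in 0.856% and both in 0. Without thinning, 18.4% (16.3 to 20.7%) of 1248 monocyte/macrophage-like cells had both, against 13.7% for the product of the shares.

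In neutrophil-like cells under anti-CD9 Ab, *Nos2* was found in 118 of 1816 thinned cells (6.50%), *Arg1* in 20 (1.10%) and both in 1 cell, where the product of the shares gives 1.30 cells. Thinning left out 893 shallower cells, and without it *Nos2* was found in 7.49% and *Arg1* in 1.22%. With control Ab, neither gene was found in any of the 62 neutrophil-like cells. In cluster 6, both genes were found in 10 of 398 thinned cells (2.51%), and the product of the shares gives 3.94 cells. Cluster 8 had *Nos2* in 11.9% of 405 thinned cells, *Arg1* in 1.23% and both in none.

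Predicted doublets, barcodes whose profile resembled a mixture of cells, were 39.5% (28.8 to 51.0%) of the cells with both, 33.1% of those with *Nos2* alone, 30.6% with *Arg1* alone and 24.0% with neither, at medians of 5016, 4680, 5782 and 4987 UMIs before thinning. When predicted doublets were left out before clustering, 5.65% (4.23 to 7.36%) of 903 cells had both. When they were left out after clustering, 5.44% (4.05 to 7.13%) of 901 cells had both, and the product of the shares was 3.67%. *Arg1* was then found in 38.3% of the cells with *Nos2* and in 23.8% of those without. Neutrophil markers summed to 839.5 CPM in the cells with both, 889.8 with *Nos2* alone, 653 with *Arg1* alone and 639 with neither. Microglia markers went the other way, at 222, 347, 992 and 1021 CPM.

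*Slc7a2* and *Ass1* were found more often where *Nos2* was. *Slc7a2* was found in 45.7% (34.6 to 57.1%) of the thinned cells with both genes and in 37.3% (28.6 to 46.7%) of those with *Nos2* alone, against 20.4% (15.7 to 25.7%) with *Arg1* alone and 10.3% (8.27 to 12.7%) with neither. *Ass1* was found in 34.6% and 32.2% of the cells with *Nos2*, against 15.8% (11.7 to 20.8%) with *Arg1* alone and 21.3% (18.5 to 24.3%) with neither. *Acod1* was found in 51.9% of the cells with both, 63.6% (54.2 to 72.2%) with *Nos2* alone, 27.9% (22.6 to 33.7%) with *Arg1* alone and 35.2% with neither. *Gch1*, the first enzyme of the synthesis of tetrahydrobiopterin, a cofactor of nitric oxide synthase, was found in 17.8% (11.4 to 25.9%) of the cells with *Nos2* alone and in 6.17 to 6.79% of the other 3 groups. *Slc7a1* and *Odc1* were found in under 5% of each group, with intervals that overlapped.

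**Figure D2:**
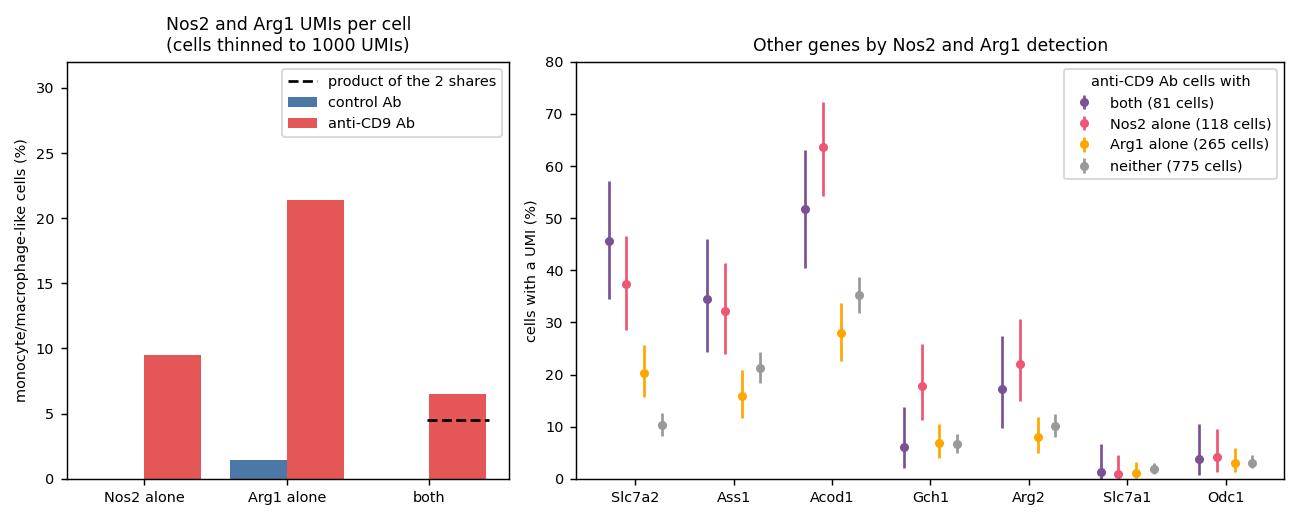
Left, percent of monocyte/macrophage-like cells, each thinned to 1000 UMIs, with *Nos2* alone, *Arg1* alone or both (277 cells under control Ab in blue, 1239 under anti-CD9 Ab in red). The dashed line is the product of the separate shares under anti-CD9 Ab (4.49%), below the 6.54% with both. Right, percent of the anti-CD9 Ab cells with a UMI of other genes, by detection of *Nos2* and *Arg1*, with 95% binomial intervals.

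The arginine transporters went apart in monocyte/macrophage-like cells. *Slc7a2* had 25 UMIs under control Ab (9.75 CPM, 6.31 to 14.4) and 2363 under anti-CD9 Ab (347 CPM, 333 to 361), giving a log2 ratio of 5.15 (4.59 to 5.78). *Slc7a1* had 69 UMIs (26.9 CPM, 20.9 to 34.1) and 82 (12.0 CPM, 9.57 to 14.9), giving a log2 ratio of -1.16 (-1.64 to -0.68). The *Slc7a1* ratio was -0.36 (-1.21 to 0.61) without integration and -0.53 (-1.28 to 0.28) without predicted doublets. It was -0.72 (-2.03 to 0.77) in thinned cells, and in all 3 settings counting error took in 0. When these cells were clustered again, as given below, 41 of the 69 control Ab UMIs came from sub-cluster 5. There, 73.4% of control Ab cells were predicted doublets. The *Slc7a1* ratio was -1.57 (-2.97 to -0.40) in sub-cluster 5, -1.44 (-2.57 to -0.30) in sub-cluster 1 and 0.25 (-1.09 to 1.62) in sub-cluster 2. The intervals of sub-clusters 0 and 3 took in 0 as well. In thinned cells, *Slc7a2* was found in 1.44% of 277 under control Ab and 17.4% of 1239 under anti-CD9 Ab, and in 0.367% of T cell-like cells under anti-CD9 Ab. Unthinned, it was found in 6.74% and 35.1% of monocyte/macrophage-like cells.

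With control Ab, most *Slc7a2* UMIs lay outside immune cells. Astrocyte-like cells gave 38.6% of its 207 UMIs in that library, and cluster 14, led by *Kcnip4*, *Opcml*, *Csmd1*, *Nrxn3* and *Nalf1*, gave 33.3%. Cluster 14 had 6 of 6 oligodendrocyte markers up, and was left without a name because its leading genes held those of another type. With anti-CD9 Ab, monocyte/macrophage-like cells gave 90.2% of 2620. Within astrocyte-like cells, *Slc7a2* was at 104 CPM (82.7 to 130) under control Ab and 158 (88.4 to 261) under anti-CD9 Ab, giving a log2 ratio of 0.60 (-0.30 to 1.41). Thus the difference in astrocyte-like cells was within counting error. Monocyte/macrophage markers in these cells summed to 335 and 4087 CPM (of 12, 2 and 1 at 0), and their part in the *Slc7a2* levels was not tested. *Slc7a1* was spread over more types. It was at 32.7 CPM (29.3 to 36.5) and 43.6 (36.4 to 51.8) in microglia-like cells, 45.5 and 34.4 in T cell-like, 36.6 and 37.1 in dendritic cell-like and 47.7 and 43.0 in plasma cell-like cells. Neutrophil-like cells were at 5.40 CPM (3.20 to 8.54) under anti-CD9 Ab.

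*Ass1*, which returns citrulline to arginine, had 225 UMIs under control Ab in monocyte/macrophage-like cells (87.7 CPM, 76.7 to 99.99) and 2143 under anti-CD9 Ab (314.5 CPM, 301 to 328), giving a log2 ratio of 1.84 (1.64 to 2.05). Dendritic cell-like cells reached a similar level, 132 CPM (105 to 164) under control Ab and 327 (299.6 to 357) under anti-CD9 Ab, giving a log2 ratio of 1.31 (0.97 to 1.66). The higher level under anti-CD9 Ab was found in both dendritic cell-like clusters, at 122 and 295 CPM in cluster 15 and 217 and 390.1 in cluster 18. Microglia-like cells were at 17.7 and 34.1 CPM (log2 ratio 0.95, 0.58 to 1.31), and the difference lay in cluster 5 (led by *Lpl*, *Cst7*, *Spp1*, *Igf1* and *Timp2*; 24.0 and 67.7 CPM) and not in cluster 2 (led by *Siglech*, *P2ry12*, *Gm10790*, *Slco2b1* and *Csmd3*; 9.35 and 7.83 CPM). The microglia-like ratio was 0.47 (0.14 to 0.79) without integration and 0.35 (-0.01 to 0.71) with cells named one by one, where counting error took in 0. In T cell-like cells the order was the opposite, 86.1 CPM (77.9 to 94.9) under control Ab and 58.5 (48.6 to 69.7) under anti-CD9 Ab, giving a log2 ratio of -0.56 (-0.86 to -0.26). Over the thinned T cell-like cells that ratio was -0.05. Neutrophil-like cells had 8.10 CPM under anti-CD9 Ab. In monocyte/macrophage-like cells, the *Ass1* ratio of 1.84 was 1.49 (1.24 to 1.75) without predicted doublets and 1.36 (1.13 to 1.61) with a mitochondrial limit of 5%. It was 1.21 (0.71 to 1.77) in thinned cells, and it was smaller in sub-clusters 0 to 4, as given below.

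*Odc1*, the first enzyme of polyamine synthesis, was highest in T cell-like cells, which gave 53.7% of its UMIs under control Ab and 35.8% under anti-CD9 Ab. It had 1023 UMIs there under control Ab (217 CPM, 204 to 231) and 805 under anti-CD9 Ab (379.7 CPM, 354 to 407), giving a log2 ratio of 0.80 (0.67 to 0.94). The direction was shared by the 3 T cell-like clusters. Cluster 0, led by *Ctla4*, *Themis*, *Trac*, *Tnfrsf4* and *Cd6*, was at 286 and 480.2 CPM, cluster 7, led by *Scart1*, *Clnk*, *Blk*, *Trdc* and *Adam12*, at 120.5 and 245, and cluster 9, led by *Trdc*, *Trgc1*, *Il17a*, *Scart1* and *Trgc2*, at 150.2 and 284. In T cell-like cells, T cell markers summed to 8022 and 6684 CPM (9, none at 0), cell cycle markers to 75.9 and 116 (8, none at 0) and neutrophil markers to 60.6 and 583 (of 10, 1 and 0 at 0), and their part in the *Odc1* difference was not tested. In thinned T cell-like cells, *Odc1* was found in 17.97% (16.5 to 19.6%) of 2443 under control Ab and 25.8% (22.8 to 28.9%) of 818 under anti-CD9 Ab. Thinning left out 340 and 68 cells, and without it the shares were 26.3% and 40.6% at medians of 1546 and 2169.5 UMIs.

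For *Odc1*, counting error took in 0 in monocyte/macrophage-like cells (46.0 and 37.1 CPM, log2 ratio -0.31, -0.63 to 0.02), microglia-like (28.0 and 23.0, -0.28, -0.69 to 0.10), dendritic cell-like (87.4 and 73.5, -0.25, -0.73 to 0.24) or plasma cell-like cells (85.7 and 85.1, -0.01, -0.40 to 0.38). This depended on the processing. In monocyte/macrophage-like cells the ratio was -0.63 (-1.08 to -0.16) without integration, -0.53 (-0.87 to -0.18) with 20 components, -0.84 (-1.18 to -0.49) with cells of up to 5% mitochondrial counts and -0.57 (-1.01 to -0.12) without predicted doublets. The plasma cell-like ratio was 0.65 (0.39 to 0.91) with the 5% limit and 0.39 (0.07 to 0.72) with cells named one by one. The dendritic cell-like ratio was 0.68 (0.29 to 1.07) with cells named one by one. These settings put other numbers of cells under the same names. Plasma cell-like cells were 143 and 122 as reported, 212 and 940 with the 5% limit and 293 and 674 one by one. Dendritic cell-like cells were 117 and 366 as reported and 726 and 473 one by one. Neutrophil-like cells had 3 UMIs under control Ab (42.9 CPM) and 185 under anti-CD9 Ab (55.5 CPM), giving a log2 ratio of 0.37 (-1.20 to 2.66). The cycling cluster 17, led by *Ube2c*, *Stmn1*, *Birc5*, *Top2a* and *Pclaf*, was at 113 CPM (88.9 to 141) under control Ab and 249.9 (217 to 286) under anti-CD9 Ab. Reads of the *Odc1* gene can be shared with its pseudogene copies, and how the counting split them is not given in the sources used here.

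*Acod1*, the itaconate-forming enzyme, was the most abundant of the 7 in the anti-CD9 Ab library, with 31441 UMIs (1387 CPM) against 1577 (63.2 CPM) under control Ab. Neutrophil-like cells gave 66.3% of these UMIs under anti-CD9 Ab and 5.01% under control Ab, where microglia-like (42.1%) and monocyte/macrophage-like cells (42.7%) gave most. In neutrophil-like cells, 79 UMIs under control Ab (1129.7 CPM, 894 to 1408) stood against 20853 under anti-CD9 Ab (6257 CPM, 6172 to 6342), giving a log2 ratio of 2.47 (2.15 to 2.81). The 79 UMIs came from 22 of 62 cells, with 3 or more UMIs in 7 of them. With anti-CD9 Ab, 2091 of 2709 cells (77.2%) had *Acod1*, and 836 had 10 or more UMIs. Only 20 of the 62 control Ab cells were deep enough to be thinned, and none of them kept an *Acod1* UMI, against 82.0% of 1816 under anti-CD9 Ab. So few cells bound the control Ab share only loosely, and unthinned it was 22 of 62. Cluster 3 (10 and 1387 cells, led by *Cxcl2*, *Ccl4*, *Rsad2*, *Cxcl10* and *Ccl3*) was at 2971 and 8935 CPM, and cluster 4 (52 and 1322 cells, led by *Retnlg*, *S100a8*, *S100a9*, *Cxcr2* and *Lrg1*) at 843 and 2749.6 CPM.

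In monocyte/macrophage-like cells, *Acod1* had 674 UMIs under control Ab (263 CPM, 243 to 283) and 5514 under anti-CD9 Ab (809 CPM, 788 to 831), giving a log2 ratio of 1.62 (1.51 to 1.74). Without predicted doublets this ratio was 0.97 (0.82 to 1.12). *Acod1* was found in 23.1% (18.3 to 28.5%) of thinned cells under control Ab and 37.4% (34.7 to 40.2%) under anti-CD9 Ab, and in 58.9% and 65.6% without thinning. Microglia-like cells were at 65.9 CPM (60.9 to 71.1) and 305 (285 to 325), giving a log2 ratio of 2.21 (2.06 to 2.36), which was 1.03 without predicted doublets. Neutrophil markers in microglia-like cells summed to 499 CPM under control Ab and 1094 under anti-CD9 Ab.

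Every other named type also had a higher *Acod1* level under anti-CD9 Ab. T cell-like cells, which should lack the gene, were at 1.28 and 51.4 CPM, plasma cell-like cells at 2.81 and 72.7, and dendritic cell-like cells at 0 and 224 (201 to 249). Astrocyte-like cells were at 14.3 and 442 CPM, while neutrophil markers in them summed to 100.4 and 1664 CPM (of 10 markers, 4 and 1 were at 0). Monocyte/macrophage markers in astrocyte-like cells summed to 335 and 4087 CPM (of 12, 2 and 1 at 0). Oligodendrocyte-like cells were at 22.1 and 669.6 CPM, with neutrophil markers at 160.4 and 4843 (3 and 1 at 0) and monocyte/macrophage markers at 937 and 1523 (2 and 3 at 0). Without predicted doublets, the log2 ratio went from 5.33 to 3.74 in T cell-like, from 4.95 to 2.79 in astrocyte-like and from 4.92 to 3.06 in oligodendrocyte-like cells. In plasma cell-like cells it went from 4.69 to 1.56 (-0.45 to 4.08), where counting error took in 0. The part of free RNA, or of cells of other types, in these levels was not tested. By the share of thinned cells with a UMI, T cell-like cells were at 2.93% (1.89 to 4.33%) under anti-CD9 Ab, dendritic cell-like cells at 13.3% (9.78 to 17.6%) and microglia-like cells at 14.6% (12.3 to 17.2%), at medians of 2282.5, 4538 and 3396 UMIs before thinning. Unthinned, these shares were 6.32%, 24.0% and 26.9%.

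When the monocyte/macrophage-like cells were clustered again without the pathway genes, 6 sub-clusters were found, and the genes split among them. *Nos2* was at 1053 CPM (975 to 1135) under anti-CD9 Ab in sub-cluster 4, led by *Cxcl2*, *Cxcl10*, *Cxcl11*, *Mxd1* and *S100a9* (148 cells, 41.2% of them predicted doublets), and at 530.0 CPM (501 to 560.1) in sub-cluster 0, led by *Saa3*, *Lcn2*, *Ccl5*, *Slc7a2* and *Ptges* (398 cells, 27.4%). It was at 15.0 CPM in sub-cluster 1 (led by *Gm5086*, *Tmem176b*, *Tmem37*, *Arhgap22* and *Ms4a7*; 305 cells), 19.5 in sub-cluster 2 (led by *Spp1*, *Fabp5*, *Gpnmb*, *Fabp4* and *Syngr1*; 161 cells) and 30.3 in sub-cluster 3 (led by *Ifitm6*, *Ccr2*, *Ifitm1*, *Sirpd* and *Spon1*; 173 cells). Sub-cluster 5, led by *Igkc*, *Cd3g*, *St6galnac3*, *Skap1* and *Csmd3*, was mostly predicted doublets (73.4% of 64 cells under control Ab and 98.4% of 63 under anti-CD9 Ab).

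*Arg1* was spread more evenly than *Nos2*. With anti-CD9 Ab it was at 1155 CPM in sub-cluster 0, 820.3 in sub-cluster 1, 649 in sub-cluster 2, 449 in sub-cluster 4 and 202 in sub-cluster 3. *Slc7a2* followed *Nos2*, at 688.5 CPM in sub-cluster 0 and 542 in sub-cluster 4 against 35.8 to 64.9 in sub-clusters 1 to 3. *Acod1* was at 2292 CPM in sub-cluster 4 and 1101 in sub-cluster 0 under anti-CD9 Ab. *Ass1* was highest in sub-cluster 4 as well (580.3 CPM). By cell, both *Nos2* and *Arg1* were found in 15.2% (11.8 to 19.2%) of 394 thinned anti-CD9 Ab cells of sub-cluster 0, where the product of the shares is 11.5%. In sub-cluster 4 both were found in 10.3% (5.87 to 16.4%) of 146 cells, with a product of 8.57%.

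Sub-clusters 0 and 4 held few control Ab cells, 10 of 282 and 1 of 282. The 10 cells of sub-cluster 0 had *Acod1* at 1002 CPM under control Ab, beside 1101 under anti-CD9 Ab, and *Ass1* at 354 beside 415. They had *Arg1* at 98.3 (5 UMIs, all from 1 cell) beside 1155 and *Nos2* at 39.3 (2 UMIs) beside 530.0. In sub-cluster 1, with 57 control Ab cells, *Acod1* was at 267 and 331 CPM and *Arg1* at 57.9 and 820.3. In sub-cluster 2, with 131, *Acod1* was at 293 and 488 CPM and *Arg1* at 2.32 (2 UMIs) and 649. The log2 ratio of *Arg1* was 3.55 (2.33 to 5.18) in sub-cluster 0 and 3.82 (3.31 to 4.39) in sub-cluster 1. It was 8.13 (6.27 to 11.2) in sub-cluster 2 and 5.74 (4.92 to 6.71) in sub-cluster 5. Over all monocyte/macrophage-like cells it was 5.36 (4.95 to 5.79). The *Arg1* ratio was smaller in sub-cluster 1 and larger in sub-cluster 2 than over all these cells, which include both. Its control Ab UMIs came from few cells, 6 of 57 in sub-cluster 1 and 2 of 131 in sub-cluster 2. The intervals take each UMI as independent, so no difference between sub-clusters is concluded. The intervals of sub-clusters 0 and 5 overlapped that over all these cells. The ratio of *Nos2* was 3.75 (1.90 to 6.80) in sub-cluster 0 and 6.75 (4.86 to 9.81) in sub-cluster 5, against 7.64. That of *Acod1* was 0.14, 0.31 and 0.73 in sub-clusters 0, 1 and 2, against 1.62. In sub-cluster 3 it was 1.06 (-0.10 to 2.53), and in sub-cluster 4, with 1 control Ab cell, 1.32 (0.57 to 2.20). In sub-cluster 5, mostly predicted doublets, it was 1.48 (1.22 to 1.75). The *Ass1* ratio was 0.23 (-0.44 to 0.99), 0.97 (0.57 to 1.40), 0.59 (0.11 to 1.07) and 0.22 (-0.51 to 1.05) in sub-clusters 0 to 3, against 1.84. It was 1.15 (-0.22 to 3.03) in sub-cluster 4 and 1.94 (1.51 to 2.38) in sub-cluster 5. That of *Slc7a2* was 3.55, 3.53, 2.74 and 5.06 in sub-clusters 0, 1, 2 and 5, against 5.15. Control Ab had no *Slc7a2* UMI in sub-clusters 3 and 4.

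**Figure D3:**
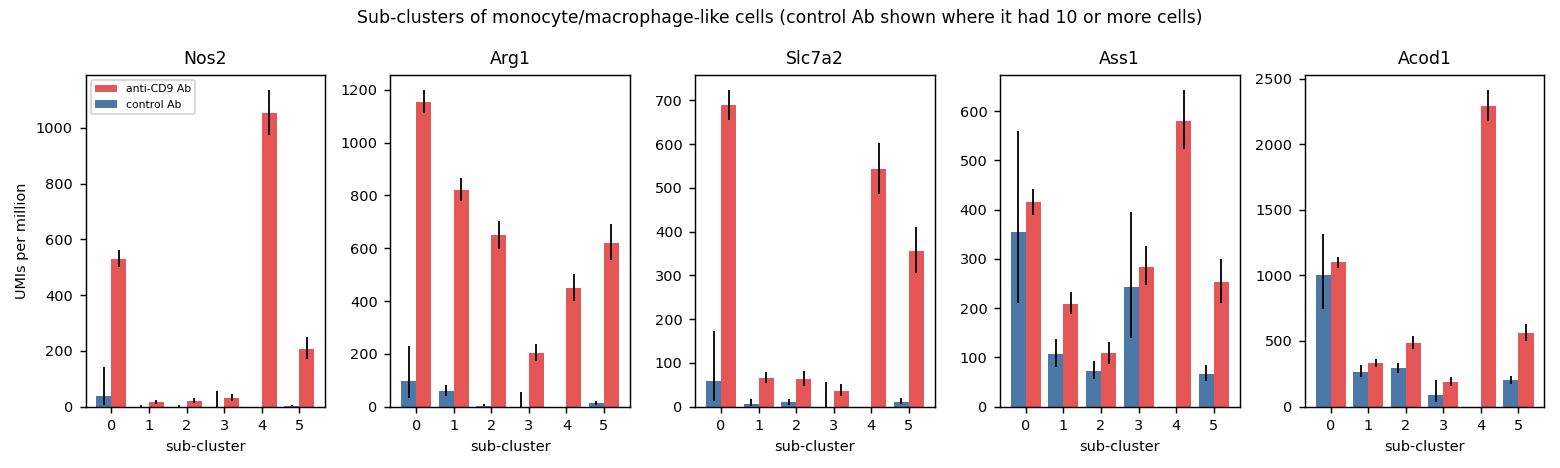
Level of *Nos2*, *Arg1*, *Slc7a2*, *Ass1* and *Acod1* in the 6 sub-clusters of monocyte/macrophage-like cells, as CPM, under control Ab in blue and anti-CD9 Ab in red. Bars are 95% Poisson intervals, and control Ab is left out of sub-cluster 4, where it had 1 cell. *Nos2* under anti-CD9 Ab reached 1053 in sub-cluster 4 and 530.0 in sub-cluster 0, and *Arg1* was at 202 to 1155 in all 6.

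The rest of the pathways was followed in 6 lists of 43 genes that included the 7. In monocyte/macrophage-like cells, 9628 genes had 50 or more UMIs, of which 6.88% were past 2-fold higher under anti-CD9 Ab and 10.7% past 2-fold lower, at a median log2 ratio of -0.13. Of the 7 genes, 5 were past 2-fold higher (*Nos2*, *Arg1*, *Slc7a2*, *Ass1* and *Acod1*) and 1 lower (*Slc7a1*), but the genes were chosen on this contrast and nothing is read from that count. Of the other 36 list genes, 28 had enough UMIs, 2 were past 2-fold higher and 2 lower, and their median was -0.29. The 2 higher were *Arg2*, the mitochondrial arginase (16.4 and 117 CPM, 2.84, 2.39 to 3.32), and *Gch1* (33.1 and 81.3 CPM, 1.29, 0.96 to 1.64). Within sub-clusters 0 to 3, the *Gch1* ratio was -0.45, 0.08, 0.71 and -1.01, and each interval took in 0. It was 0.93 (0.07 to 1.78) in sub-cluster 5, mostly predicted doublets. The *Arg2* ratio was -0.36 (-1.42 to 0.97) in sub-cluster 0 and 0.58 (-0.85 to 2.50) in sub-cluster 3. It was 2.79 (1.63 to 4.26), 3.25 (2.31 to 4.35) and 2.67 (1.75 to 3.70) in sub-clusters 1, 2 and 5. The 2 lower were *Srm*, spermidine synthase (16.8 and 7.48 CPM, -1.16, -1.78 to -0.54), and *Suclg2*, a subunit of succinate-CoA ligase (63.2 and 21.7 CPM, -1.54, -1.87 to -1.21). *Asl*, which acts after *Ass1*, was at 26.5 and 23.9 CPM (-0.15, -0.57 to 0.28).

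*Arg2*, *Gch1*, *Srm* and *Suclg2* belong to the lists of arginases, nitric oxide synthesis, ornithine use and itaconate neighbours, in that order. The lists of arginine transport and citrulline recycling held no gene past 2-fold outside the 7. Among transporters, *Slc7a6*, *Slc7a7* and *Slc3a2*, which encode parts of heteromeric exchangers, were at ratios of -0.77, -0.64 and -0.49.

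**Figure D4:**
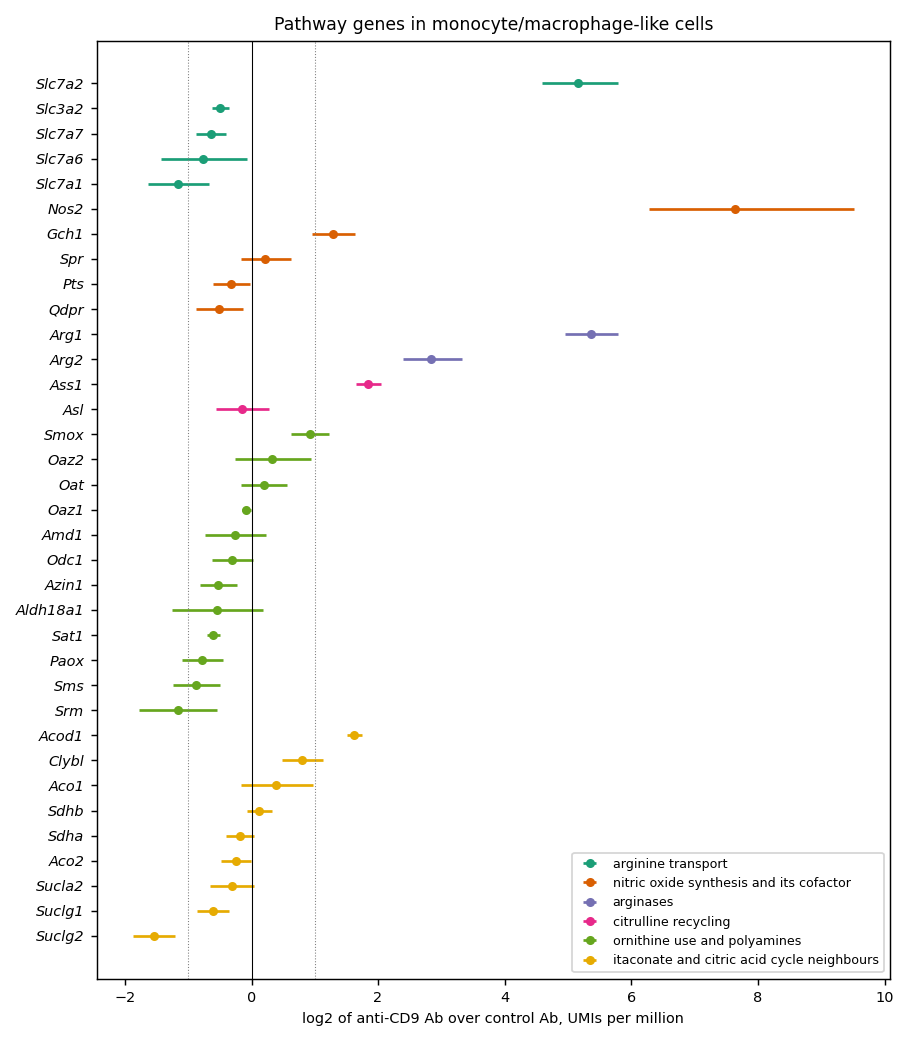
Log2 ratio of anti-CD9 Ab over control Ab in monocyte/macrophage-like cells for the 35 pathway genes with 50 or more UMIs, ordered by list, with exact 95% intervals for counting error. Dotted lines mark 2-fold. *Nos2* (7.64), *Arg1* (5.36), *Slc7a2* (5.15) and *Arg2* (2.84) lie furthest to the right, and *Suclg2* (-1.54) furthest to the left.

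In neutrophil-like cells, 13.1% of 5434 genes with 50 or more UMIs were past 2-fold higher and 18.9% past 2-fold lower, with a library at 0 entered at 3 UMIs, at a median of -0.27. Of the 7 genes, *Nos2* and *Acod1* were past 2-fold higher and *Odc1* was not, while the other 4 were under 50 UMIs. For *Nos2* this holds with its 0 entered at 3 UMIs, and its exact interval starts below 2-fold. Of the other list genes, 16 were counted, 4 were past 2-fold higher and 3 lower. The higher were *Arg2* (157 and 702 CPM, 2.16, 1.32 to 3.16), *Smox*, spermine oxidase (129 and 707 CPM, 2.46, 1.53 to 3.59), *Gch1* (3 UMIs under control Ab, 42.9 and 132 CPM, 1.62, 0.07 to 3.91) and *Oat*, ornithine aminotransferase (1 UMI under control Ab, 14.3 and 33.3 CPM, 1.22, -1.29 to 6.54). The lower were *Suclg1* (85.8 and 17.1 CPM, -2.33, -3.54 to -0.82), *Amd1* (42.9 and 18.002 CPM, -1.25, -2.87 to 1.06) and *Pts* (129 and 62.1 CPM, -1.05, -2.004 to 0.10). The intervals of *Oat*, *Amd1* and *Pts* took in 0.

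In microglia-like cells, 3.18% of 11060 genes were past 2-fold higher and 4.5% past 2-fold lower. Of the 4 members with 50 or more UMIs, only *Acod1* was past 2-fold higher, and none was lower. Of 29 other list genes, *Arg2* was past 2-fold higher (1.984 and 21.3 CPM, 3.42, 2.68 to 4.23), and *Ddah2* (10.8 and 3.38 CPM, -1.68, -2.78 to -0.74) and *Qdpr* (35.3 and 17.2 CPM, -1.04, -1.49 to -0.61) were past 2-fold lower. *Ddah2* belongs to a gene family named for the breakdown of methylarginines, which inhibit nitric oxide synthases, and *Qdpr* recycles the cofactor. Neutrophil markers, at 499 and 1094 CPM in microglia-like cells, moved with *Arg2*, which was at 157 and 702 CPM in neutrophil-like cells. Their part in the *Arg2* difference was not tested, and no *Arg2* value was computed without predicted doublets.

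Profiles over cell types were also compared, as log2(CPM + 10) over 17 profiles of named cell type by library with at least 50 cells, among 9356 genes with 500 or more UMIs. The profiles share libraries and depth, and the correlations are descriptions. Outside the 7 genes, *Nos2* was most like *Sod2* (Pearson's r of 0.89), *F10* (0.87), *Tarm1* (0.87), *Thbs1* (0.85) and *Upp1* (0.83). *Arg1* was most like *Gm56663* (0.95), *Gm15056* (0.91), *Ms4a4a* (0.86), *Gm56768* (0.85) and *F13a1* (0.85), and *Acod1* was most like *Tnfaip2* (0.98), *Clec4d* (0.97), *Ier3* (0.96), *Clec4e* (0.95) and *Cd300lf* (0.93). *F13a1* is one of the markers that named monocyte/macrophage-like cells, so its place here is not independent of the naming. Among the members, *Nos2* and *Arg1* were at 0.80, *Nos2* and *Acod1* at 0.63 and *Arg1* and *Slc7a2* at 0.68, while *Odc1* and *Slc7a1* were below 0 with each of *Nos2*, *Arg1* and *Acod1*.

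The members' ratios in monocyte/macrophage-like cells were computed under each alternative way of clustering, filtering and naming cells. Some settings put other cells under that name. Control Ab and anti-CD9 Ab cells were 282 and 1248 as reported, and 147 and 1212 without integration. They were 255 and 2196 with the 5% mitochondrial limit and 334 and 2524 when named one by one. *Nos2*, *Arg1*, *Slc7a2*, *Ass1* and *Acod1* were higher under anti-CD9 Ab in every setting that gave a ratio. *Slc7a1* was below 0 in each, but its interval took in 0 without integration, without predicted doublets and in thinned cells. *Odc1* was at -0.84 with cells of up to 5% mitochondrial counts and at 0.08 when cells were named one by one from their markers.

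**Figure D5:**
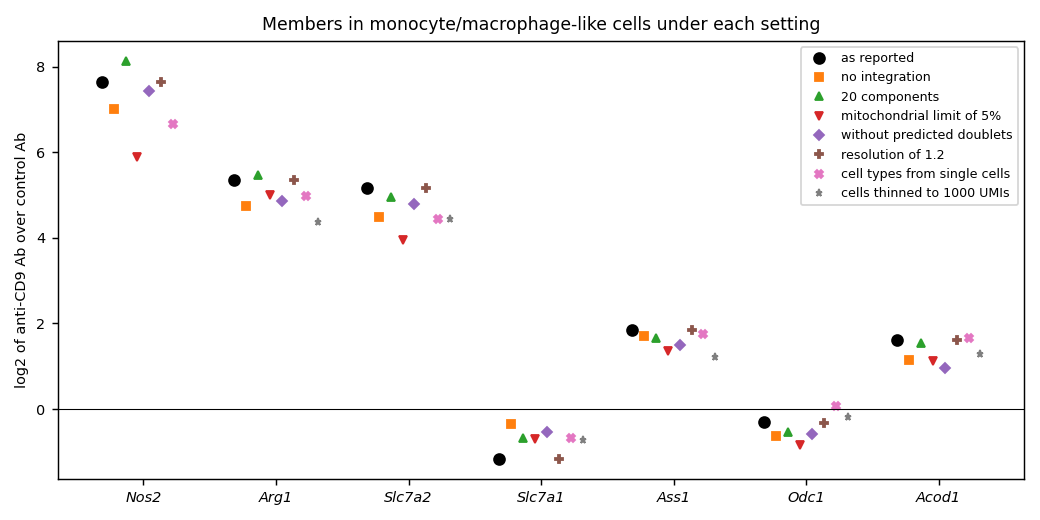
Log2 ratio of anti-CD9 Ab over control Ab for the 7 genes in monocyte/macrophage-like cells as reported (black) and under 7 alternatives (colours). *Nos2* lies between 5.88 and 8.14 and has no ratio in thinned cells, where control Ab was at 0, and *Acod1* lies between 0.97 and 1.67.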

How the data were processed

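The authors deposited gene by barcode matrices of raw UMI counts, with no normalization, for the 2 libraries. The submitters' processing notes name Cell Ranger 8.0.0 and GRCm39, while the study's methods name another release and build, so that no gene coordinate was taken from the matrices. Promoter sequences came from RefSeq (GRCm38.p6). Each library had 1 column set, and 0 per-sample columns of other series.

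Cells with 200 to 7500 genes and at most 2% mitochondrial counts were kept. Libraries were joined with Seurat 5.3.0 anchors in R 4.3.3, as in the methods, which add Harmony for the antibody data (not used here), from 2000 variable genes without the 43 pathway genes, with 30 components and a resolution of 0.8. Clusters were named where at least 3 and 40% of a type's markers were up, and these limits were chosen after the data were seen. Doublets were predicted by simulated doublets, at a rate set beforehand of 0.8% per 1000 barcodes of a library, and kept, except in an alternative. UMIs were summed per cell type and library, with exact Poisson, binomial (Clopper-Pearson) and conditional binomial 95% intervals (scipy 1.17.1). The floor was 3 counts. Genes with 50 or more UMIs were compared at 2-fold. The counting was tested on simulated data. Named genes were the members, the pathway genes past 2-fold and the 5 genes most like *Nos2*, *Arg1* and *Acod1*. Members and lists were chosen with earlier results of these data known.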

Additional observations from a re-analysis of the deposited data

Results flagged for a closer look

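2 genes differed in direction between cell types, each from 1 library per antibody, and the difference itself was not tested. For *Slc7a1*, the log2 ratio of anti-CD9 Ab over control Ab was 0.41 in microglia-like cells and -1.16 in monocyte/macrophage-like cells, 1.57 apart. The first value was 0.11 (-0.13 to 0.36) with a mitochondrial limit of 5%, 0.29 (-0.02 to 0.60) with 20 components and 0.34 (-0.26 to 0.92) in cells thinned to 1000 UMIs. The second was -0.36 (-1.21 to 0.61) without integration, -0.53 (-1.28 to 0.28) without predicted doublets and -0.72 (-2.03 to 0.77) in thinned cells. For *Ass1*, the ratio was 1.84 in monocyte/macrophage-like cells and -0.56 in T cell-like cells, 2.40 apart. In cells thinned to 1000 UMIs, the first value was 1.21 and the second -0.05. Without predicted doublets the first value was 1.49.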

How the results depend on the processing

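The log2 ratio of *Acod1* in monocyte/macrophage-like cells (1.62) was 1.15 without integration, 1.11 with a mitochondrial limit of 5%, 0.97 without predicted doublets and 1.28 in cells thinned to 1000 UMIs. That of *Arg1* (5.36) was 4.74 without integration, 4.87 without predicted doublets and 4.36 in thinned cells. That of *Nos2* (7.64) was 5.88 with the 5% limit, and thinned cells gave no value, since control Ab was at 0. The share of anti-CD9 Ab cells with both *Nos2* and *Arg1* (6.54%) was 4.99% with the 5% limit, 4.84% with cells named one by one and 18.4% unthinned. The count of pathway genes past 2-fold in microglia-like cells (4 of 33) was 8 of 38 with a minimum of 20 UMIs. The 7 genes, chosen on this contrast, gave 1 of the 4 and 4 of the 8. The share over all genes was not computed at 20 UMIs, and nothing is read from these counts. The cause of these moves was not tested. Among 30 other log2 ratios, 194 of 207 alternative values had the same sign and 13 the other sign. The 30 include the ratios over all kept cells, which new clusters or names cannot change. Their agreement in those settings was fixed in advance. No paired analysis was possible because there was 1 library per antibody, and no library could be left out. Among the named types, neutrophil-like cells had the fewest control Ab UMIs (69931).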

Other observations

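Clusters without a name carried part of the pattern with anti-CD9 Ab. In cluster 6, *Acod1* was at 692 CPM (652 to 734), *Arg1* at 226, *Slc7a2* at 96.2 and *Odc1* at 139.8, and 4 of its 1250 cells had 10 or more *Arg1* UMIs. In cluster 8, *Acod1* was at 1896 CPM (1804 to 1992), *Odc1* at 190.5 and *Arg1* at 14.5.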
